A study of Mus musculus with 12 samples.

Results

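The genes examined here encode the subunits of potassium channels, the pore-forming and accessory proteins whose gene names begin with Kcn. A gene was taken as a member when its name was Kcn followed by further letters and a closing number, and no measured value entered that choice. The rule found 42 of the 18903 genes in the table, and all 42 carried enough reads to be tested. They were followed by RNA-seq (read counts per gene) through cultured primary astrocytes taken from mouse brain at postnatal day 1 (P1), day 6 (P6) and day 8 (P8). Each combination of genotype and age had 2 libraries, 12 in all. The group called cKO was hGFAP-Cre::Rack7 fl/fl, in which Cre driven by a human GFAP promoter removes floxed exons of Rack7 (gene symbol Zmynd8, a chromatin reader protein), and the group called WT was hGFAP-Cre::Rack7 +/+, so that both genotypes carried the Cre transgene. This Cre is active in embryonic neural stem cells of the dorsal forebrain and therefore acts on part of the neurons and glia that descend from them, not on astrocytes alone. The brain tissue was freed of meninges, cultured, shaken to remove microglia and oligodendrocytes, and grown on to confluence. The titles call the 2 libraries of a group biological replicates, but nothing ties them to named animals, so the p-values measure the spread between these libraries. In such bulk RNA, fewer cells of a type and less RNA per cell cannot be told apart.

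Potassium channels set the resting potential of astrocytes, which sits close to the equilibrium potential of potassium, and they let astrocytes take up the potassium that active neurons release. The inward rectifier Kir4.1, encoded by Kcnj10, is the best known of them and matures postnatally, alone or paired with Kir5.1 (Kcnj16), while 2-pore domain channels such as TREK-1 (Kcnk2) and TWIK-1 (Kcnk1) add a passive leak. Voltage-gated, calcium-activated and sodium-activated channels are better known from excitable and immune cells, and beta subunits and calcium-binding KChIP proteins alter the gating and surface level of the pores they join.

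The promoters of 5 members are shown, namely the most abundant one, Kcnj10, and 4 with large called differences between the labels, chosen after their values were seen, because the CG content of these stretches differs widely. Each line gives the 250 bases before the RefSeq start in build GRCm38.p6, 5' to 3' on the gene's strand, with each CG dinucleotide, the site of DNA methylation, in capitals. 
Kcnj10, chr1:172340960-172341209, plus strand: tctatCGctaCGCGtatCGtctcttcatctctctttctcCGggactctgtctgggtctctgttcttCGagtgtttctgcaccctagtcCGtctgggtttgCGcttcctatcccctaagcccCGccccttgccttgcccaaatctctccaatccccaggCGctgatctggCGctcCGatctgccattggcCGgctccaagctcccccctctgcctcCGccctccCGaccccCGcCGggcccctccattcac
Kcnt2, chr1:140245468-140245717, plus strand: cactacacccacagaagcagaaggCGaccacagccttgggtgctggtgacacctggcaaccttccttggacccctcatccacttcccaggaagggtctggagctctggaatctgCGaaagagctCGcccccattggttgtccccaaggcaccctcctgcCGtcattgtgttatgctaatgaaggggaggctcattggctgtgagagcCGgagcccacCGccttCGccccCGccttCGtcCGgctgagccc
Kcnf1, chr12:17176889-17177138, minus strand: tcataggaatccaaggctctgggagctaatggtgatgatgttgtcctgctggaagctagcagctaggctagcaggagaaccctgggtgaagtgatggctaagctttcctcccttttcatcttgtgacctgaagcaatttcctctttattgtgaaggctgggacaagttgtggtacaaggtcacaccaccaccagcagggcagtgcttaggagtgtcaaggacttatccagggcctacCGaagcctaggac
Kcnj15, chr16:95257308-95257557, plus strand: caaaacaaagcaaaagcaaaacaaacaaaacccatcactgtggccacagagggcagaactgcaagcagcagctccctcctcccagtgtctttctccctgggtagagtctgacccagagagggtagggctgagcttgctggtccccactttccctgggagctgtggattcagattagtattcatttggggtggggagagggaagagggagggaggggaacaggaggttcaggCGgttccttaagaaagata
Kcnmb1, chr11:33962763-33963012, plus strand: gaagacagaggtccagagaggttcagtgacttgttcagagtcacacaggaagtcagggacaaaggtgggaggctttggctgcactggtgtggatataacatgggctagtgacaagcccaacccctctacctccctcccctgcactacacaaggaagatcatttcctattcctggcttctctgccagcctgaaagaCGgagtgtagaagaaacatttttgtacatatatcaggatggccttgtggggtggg

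The Kcnj10 promoter held 17 CG sites and the Kcnt2 promoter 10, whereas those of Kcnf1, Kcnj15 and Kcnmb1 held 1 each. A promoter was at hand for 36 of the 42 members, with a median of 8.00 CG sites per 250 bases against 6.00 over all 32851 promoters of the RefSeq set. The median was 6.00 for the 12 members with a promoter that were higher in the libraries labelled cKO at P8, 5.5 for the 8 that were lower and 11.0 for the 16 that were not called. The letters CTTTGAT, a site of the TCF/LEF factors of Wnt signalling searched on both strands, occurred in 2 of the 36, Kcne4 and Kcnk2, and in 3.21% of all promoters. These are descriptions of the windows and say nothing about which factor binds there.

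The libraries held 54413504 to 89183250 counted reads. Zmynd8 itself was higher in the libraries labelled cKO at each time. At P1 the pair stood at 213 and 216 CPM (counts scaled to a common library size by TMM) against 136 and 136. The log2 fold changes were 0.65 ± 0.05 for P1, 1.04 ± 0.05 for P6 and 0.70 ± 0.05 for P8 (± SE, here and below). A count over the whole gene goes on reading the exons outside the floxed part, so it does not check the deletion, and the groups are called by their labels throughout. The paper examined RACK7 protein itself by immunoblot of WT and cKO primary astrocytes, and reported far fewer RACK7 ChIP-seq peaks in cKO. All 9 astrocyte markers were present, with a summed level of 1566 to 1949 CPM under the WT label and 687 to 702 under cKO at P8, where 8 of the 9 had a lower mean under cKO (Gfap 378 against 179.9 CPM) and Aldh1l1 a higher one (51.8 against 72.7 CPM). Markers of other cells were also present and differed between the labels. At P1 the 6 fibroblast markers summed to 353 to 367 CPM under the WT label against 2380.4 to 2409 under cKO, and the 8 microglia markers to 2637 to 2656 against 2085 to 2175. At P6 the fibroblast list stood at 6448 to 6503 against 2389 to 2566 CPM, with Lum at 0 in both libraries labelled cKO, and the microglia list at 2019 to 2096 against 2382 to 2429.8. By P8 they had reached 25430.0 to 25549 against 8033 to 8277 CPM for the first and 1975 to 2059.7 against 3918 to 3932 for the second. Of the other lists, the 4 endothelial markers in the table summed to 148 to 161 against 36.9 to 39.9 CPM at P8, the 6 mural markers to 1871 to 1875 against 2319 to 2328, and 3 neuron markers to 65.2 to 68.5 against 176 to 178. The 7 oligodendrocyte lineage markers lay between 106 and 193 CPM and the 4 ependymal and choroid plexus markers between 30.5 and 233 CPM over all libraries. The part of these cells in any difference described here was not tested.

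**Figure D1:**
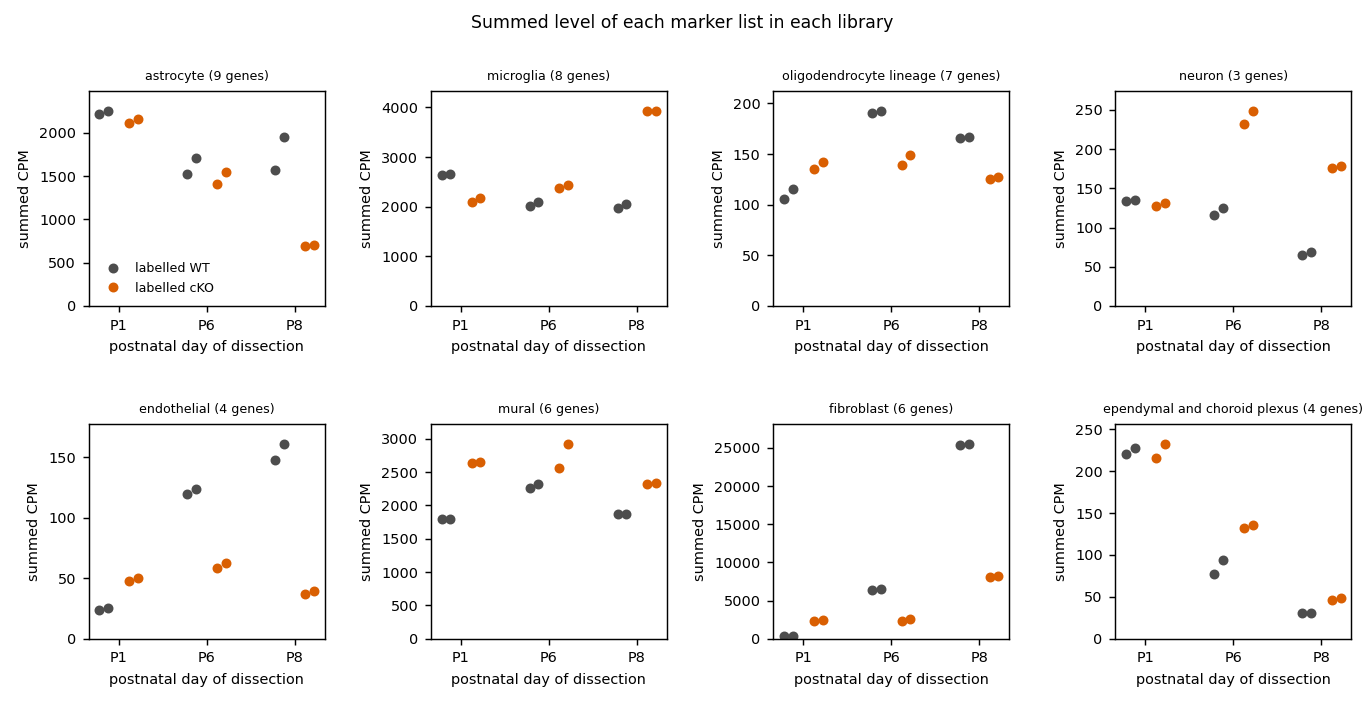
Summed level (CPM, y axes from 0) of 8 marker lists in each library at P1, P6 and P8; grey points are libraries labelled WT and orange points those labelled cKO. At P8 the fibroblast list stood at 25430.0 to 25549 CPM under the WT label and 8033 to 8277 under cKO, and the microglia list at 1975 to 2059.7 and 3918 to 3932.

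Kcnj10 was the most abundant member when levels were compared per length (RPKM, CPM per kilobase of exon), with a mean of 28.8 RPKM over the 12 libraries. Kcnab2, a cytoplasmic beta subunit of voltage-gated channels, followed at 7.87, then Kcnk2 at 5.67, Kcnk13 at 5.43, Kcnk1 at 4.3 and Kcnk6 at 4.26 RPKM. Kcnj2, Kcnf1, Kcnn4 and Kcnn3 completed the first 10, between 3.13 and 3.64 RPKM, and the same 10 led when the longest transcript gave the length. The lowest members were Kcnc4 at 0.0548 and Kcna5 at 0.154 RPKM. Kcnma1, Kcnn2 and Kcna4, which are often named in work on glia, were not analysed here.

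Of the summed RPKM of the 42 members, Kcnj10 made up 33.9% and 33.9% under the WT label at P1 and 34.5% and 33.5% under cKO. The share came to 34.4% and 37.9% against 23.0% and 25.5% at P6, and to 23.8% and 23.3% against 9.9% and 9.79% at P8, so the labels overlapped at P1 and stood apart at P6 and P8. The 5 two-pore domain genes held 12.3% and 11.98% of the pool under the WT label at P8 and 23.1% and 25.2% under cKO, while at P1 and P6 their share stayed between 22.4% and 24.1% in every library. The 3 silent voltage-gated subunits held 4.25% and 3.65% under the WT label at P6 and 16.7% and 15.5% under cKO, of which Kcnf1 made up 3.002% and 2.36% and 14.4% and 12.9% of the pool. The share of Kcnj15 was at most 1.47% of the pool at P1 and P6, and at P8 it was 15.9% and 15.8% under the WT label and 4.16% and 4.2% under cKO. The summed level of all members at P8 was 88.5 and 87.3 RPKM against 69.4 and 64.0. Without Kcnj10 it was 67.4 and 66.9 against 62.5 and 57.7. These shares are descriptions and were not tested.

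**Figure D2:**
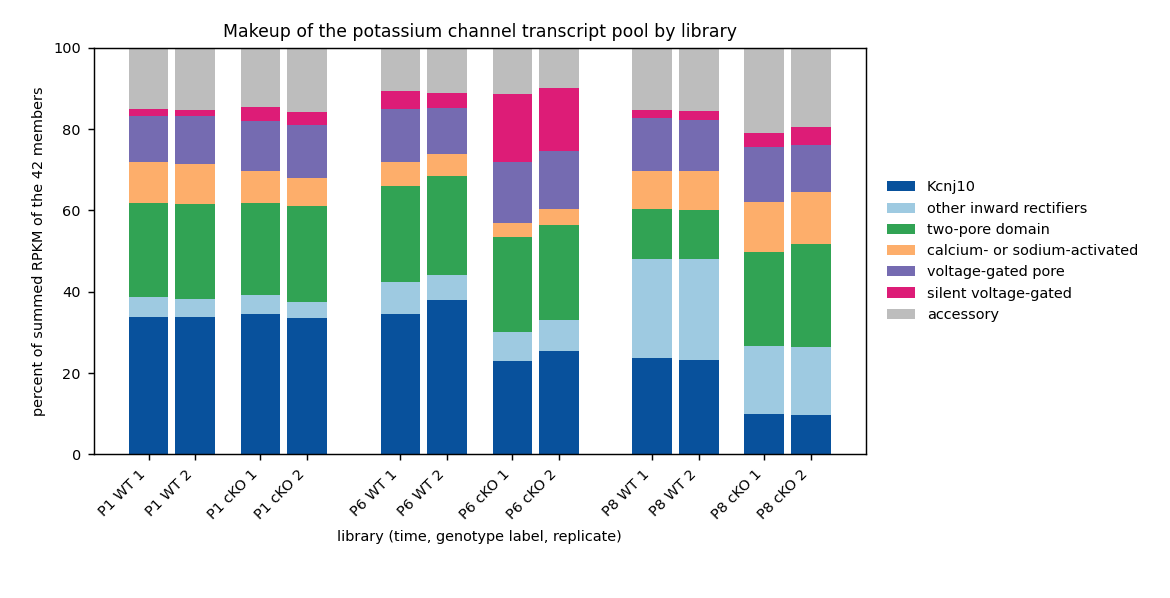
Makeup of the potassium channel transcript pool in each library: each bar stacks the percent of the summed RPKM of the 42 members held by Kcnj10 (dark blue), the other inward rectifiers and 5 further families. The Kcnj10 part was 23.8% and 23.3% under the WT label at P8 and 9.9% and 9.79% under cKO, and the silent voltage-gated part (pink) reached 16.7% and 15.5% at P6 in the libraries labelled cKO.

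The genotype labels differed for 6 members at P1, 20 at P6 and 25 at P8. A member was called when its edgeR adjusted p lay below 0.05 over all 17938 genes tested and its fold change reached 1.5. At P1, 3 of 42 were higher in the libraries labelled cKO (Kcne4, Kcnf1 and Kcnj15), against 4.01% of all genes tested, and 3 were lower (Kcnj2, Kcnj4 and Kcnn4), against 0.892%. At P6, 9 were higher, against 7.16% of all genes, and 11 were lower, against 6.38%. By P8, 14 were higher, against 11.2%, and 11 were lower, against 8.37%. As shares of the 42, the P8 counts are 33.3% and 26.2%. The members had a median log2 fold change of -0.0023 at P1, of -0.0785 at P6 and of -0.2819 at P8. Over all genes the median was 0 at P1 and P6 and 0.0119 at P8. Among the 42 members, 21 had a log2 fold change above 0 at P1, 19 at P6 and 17 at P8. In all, 30 members were called at 1 or more time points and 12 at none, among them Kcna3, Kcna6, Kcnab1, Kcnc1, Kcnc2, Kcnq5 and Kcns3. Kcnf1 alone was higher at all 3 times, and 6 members, among them Kcnab2, Kcne4, Kcnj15 and Kcnn4, were called in opposite directions at different times. The share of all genes with such patterns over the 3 times was not worked out, so these are descriptions only. The counts at each time moved with single libraries. At P1 the lower members numbered 1 without P1 WT library 2, P1 cKO library 1 or any one P8 library. At P6 the higher members numbered 5 without P6 WT library 1 or P6 cKO library 2, and the lower members 7 without P6 WT library 1 and 6 without P6 cKO library 1. Where a call is described as lost, the values beside it span all the alternatives that ended it, changes of the fit included.

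**Figure D3:**
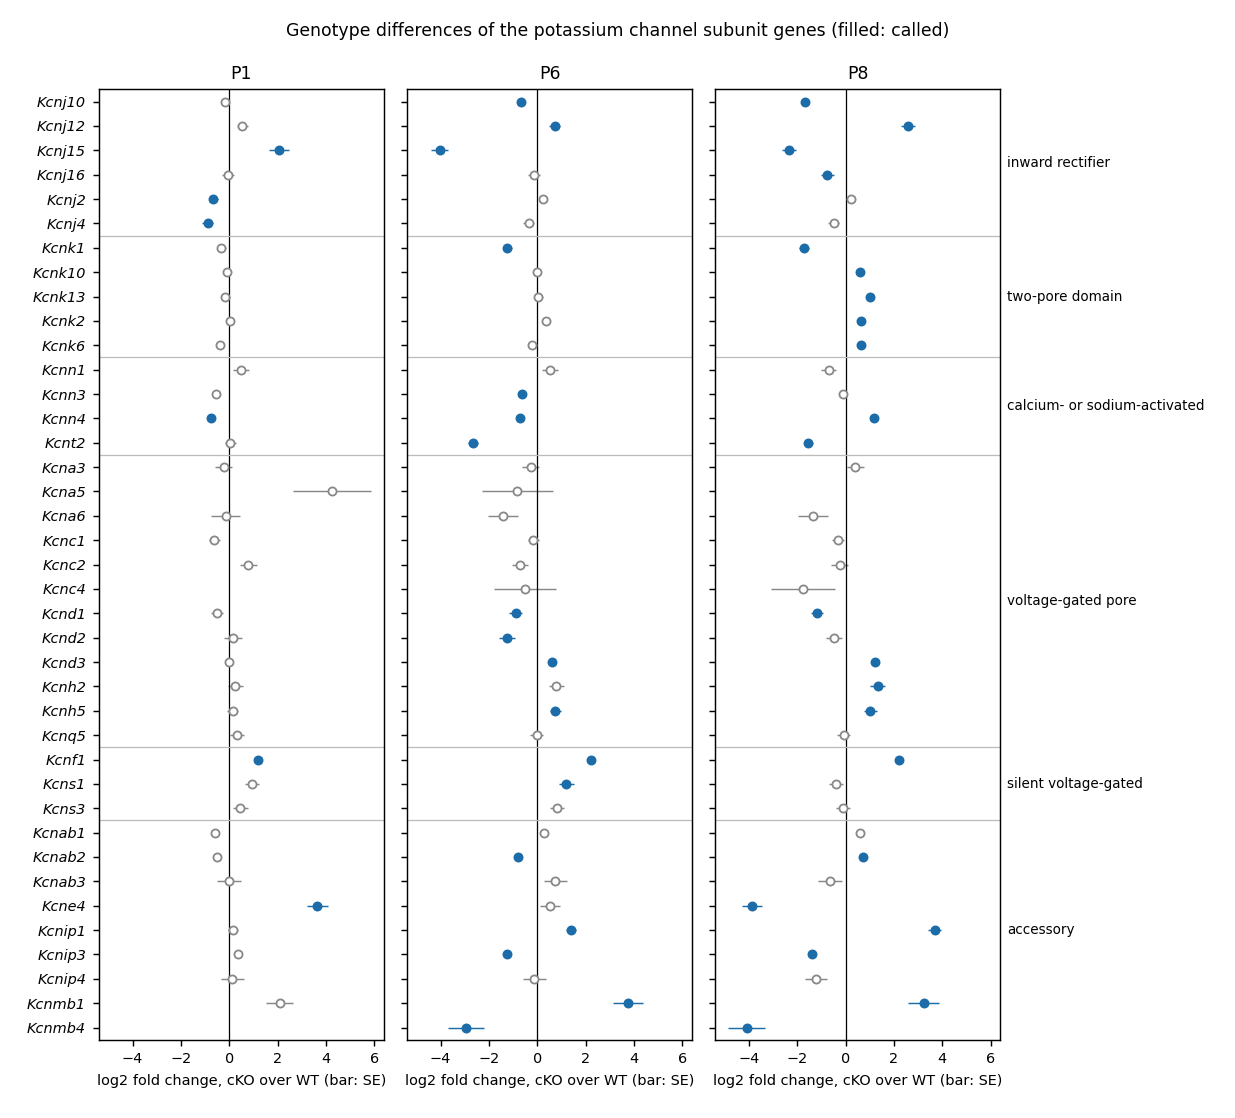
Log2 fold change (x axis, labelled cKO over labelled WT, bar: SE from edgeR) of the 39 members reported by name at P1, P6 and P8, grouped by channel family; filled blue points were called and open grey points were not. Points are left out where a group held 10 counts or fewer (Kcnmb4 and Kcnc4 at P1, Kcna5 at P8); the 4 two-pore domain genes other than Kcnk1 are filled to the right of 0 only at P8.

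Among the 6 inward rectifiers, Kcnj10 fell in the libraries labelled cKO at P6 and P8, and Kcnj15 rose at P1 and fell at P6 and P8. Kcnj10, which encodes Kir4.1 (chr1:172341210-172374085), had 230.4 and 248 CPM under the WT label against 213 and 210.5 under cKO at P1, a difference that was not called (log2 fold change -0.18 ± 0.08, adjusted p = 0.254). At P6 it had 200.1 and 215 CPM under the WT label against 119 and 140.3 under cKO (log2 fold change -0.68 ± 0.08, adjusted p = 0.000281). By P8 the values were 114 and 110.0 CPM under the WT label against 37.2 and 33.8 under cKO (log2 fold change -1.66 ± 0.08, adjusted p = 6.24e-07). At each of the 3 times both libraries labelled cKO lay below both labelled WT. The summed astrocyte list overlapped between the labels at P6, at 1518 to 1705 against 1404 to 1542 CPM, and stood apart at P8, at 1566 to 1949 against 687 to 702. Of its 9 markers, 4 had a higher mean under cKO and 5 a lower one at P6, and 1 and 8 at P8. Aldh1l1 was higher at both times (143 against 181 CPM at P6, 51.8 against 72.7 at P8). Within that list Aqp4, the water channel of astrocyte endfeet, averaged 447 CPM under the WT label against 111 under cKO at P8. The part of astrocyte number in the Kcnj10 difference was not tested. Without P6 cKO library 1 the P6 log2 fold change of Kcnj10 came to -0.56, short of the 1.5-fold bound.

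Kcnj15, encoding Kir4.2, a close relative of Kir4.1 best known from epithelia, was scarce at P1, with 0.335 and 0.246 CPM under the WT label against 1.5 and 0.878 under cKO (log2 fold change 2.05 ± 0.42, adjusted p = 0.0152). The order of the labels turned at P6, to 9.97 and 5.56 CPM under the WT label against 0.35 and 0.591 under cKO (log2 fold change -4.04 ± 0.36, adjusted p = 4.47e-05). At P8 the gene stood far higher under both labels, with 88.8 and 87.1 CPM under the WT label against 18.3 and 17.0 under cKO (log2 fold change -2.32 ± 0.29, adjusted p = 0.000238). The labels did not overlap at any time. The fibroblast list had the same order of labels as Kcnj15 at each time, above WT at P1 and below it at P6 and P8, and its part was not tested. The P1 call of Kcnj15 was lost without either P1 WT library or without P1 cKO library 1 (log2 fold change 1.61 to 2.26, adjusted p = 0.0573 to 0.114).

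The other inward rectifiers differed less, or at lower levels. Kcnj2, encoding the classical strong rectifier Kir2.1, had 12.7 and 11.2 CPM under the WT label against 6.99 and 8.21 under cKO at P1 (log2 fold change -0.66 ± 0.17, adjusted p = 0.049). Its P8 values were 31.9 and 33.6 CPM under the WT label against 40.1 and 35.9 under cKO, with no call at P6 or P8 (0.24 ± 0.17 and 0.22 ± 0.17 on the log2 scale). Kcnj4, encoding the related Kir2.3, stood at 2.08 and 2.36 CPM under the WT label against 1.34 and 1.04 under cKO at P1 (log2 fold change -0.90 ± 0.23, adjusted p = 0.0416). Both P1 falls lay at the edge of the threshold. The Kcnj2 call was lost without any single library other than the P6 WT ones (log2 fold change -0.78 to -0.54, adjusted p = 0.0501 to 0.232), and the Kcnj4 call without any single library other than the P6 cKO ones (log2 fold change -1.10 to -0.73, adjusted p = 0.0594 to 0.198). Kcnj12, the third gene of the Kir2 family here, was rare and higher at P8, at 0.168 and 0.18 CPM under the WT label against 0.968 and 1.13 under cKO (log2 fold change 2.58 ± 0.28, adjusted p = 9.82e-05). Its P6 values were 3.65 and 3.88 CPM under the WT label against 5.39 and 7.02 under cKO (log2 fold change 0.72 ± 0.23, adjusted p = 0.0448), a call that was lost without either P1 WT, P6 WT, P8 WT or P8 cKO library or without P6 cKO library 2 (log2 fold change 0.52 to 0.76, adjusted p = 0.0552 to 0.239). Kcnj16, whose product Kir5.1 is silent alone and pairs with Kir4.1, overlapped between the labels at P6, with 3.9 and 3.47 CPM under the WT label against 2.71 and 3.98 under cKO. At P8 the libraries stood at 2.22 and 3.16 CPM under the WT label against 1.49 and 1.71 under cKO (log2 fold change -0.75 ± 0.26, adjusted p = 0.049), a call that was lost without either P1 WT or P6 WT library, P8 WT library 2 or either P8 cKO library (log2 fold change -0.86 to -0.47, adjusted p = 0.0508 to 0.295).

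**Figure D4:**
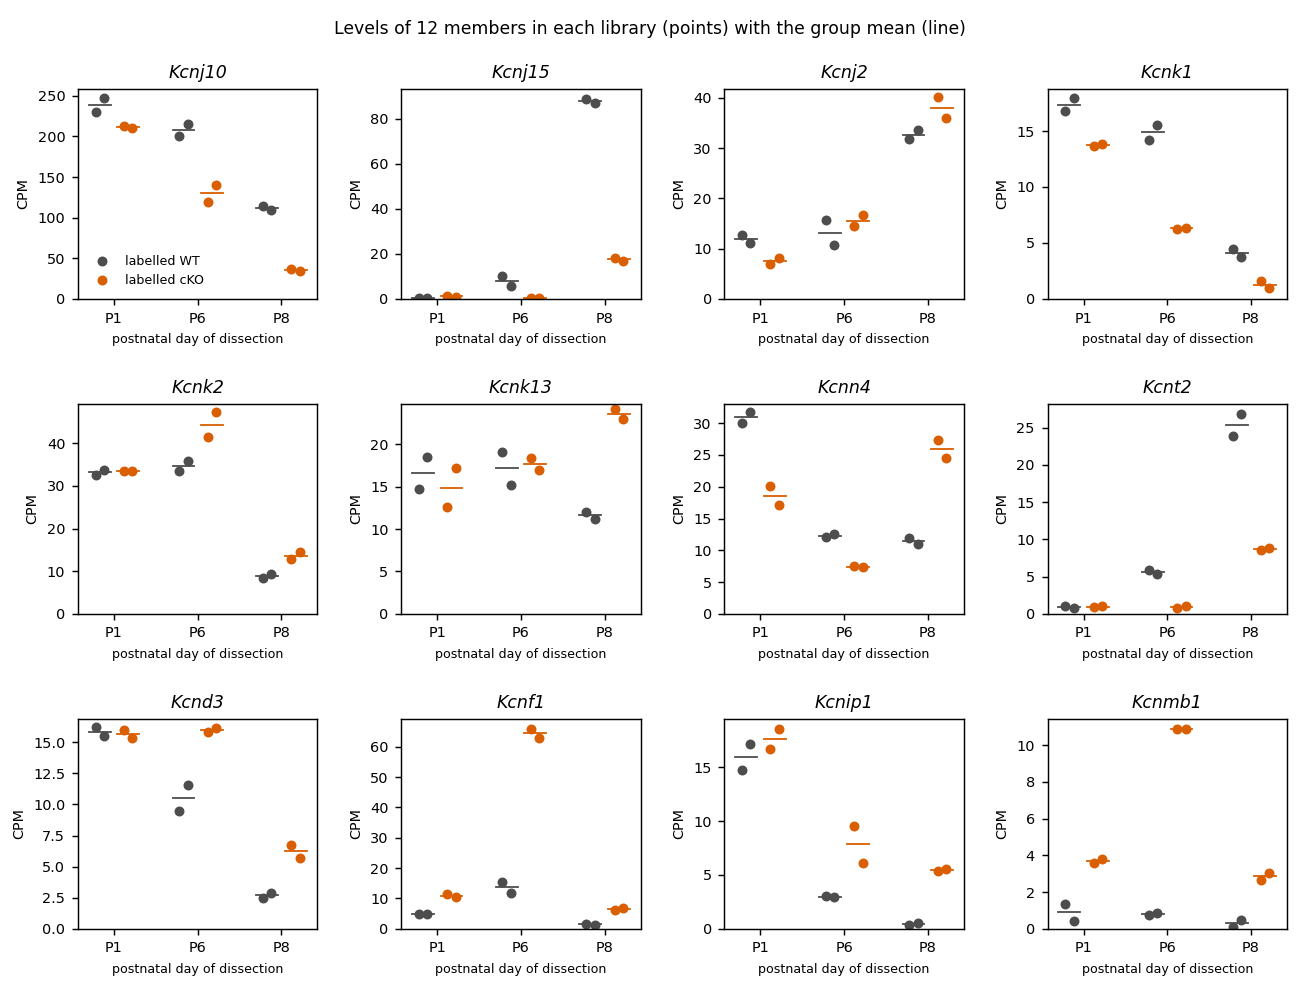
CPM (y axes from 0) of 12 members in each library at P1, P6 and P8; grey points are libraries labelled WT, orange points those labelled cKO, and lines mark group means. Kcnj10 stood at 37.2 and 33.8 CPM in the P8 libraries labelled cKO against 114 and 110.0 in those labelled WT, while Kcnf1 peaked at 66.0 and 62.8 CPM in the P6 libraries labelled cKO.

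The 5 two-pore domain genes, which encode background leak channels, split at P8, where Kcnk1 was lower in the libraries labelled cKO and the other 4 were higher. No member of the family was called at P1 by edgeR or by DESeq2, and 1, Kcnk6, had an unadjusted p under 0.05. Over all genes tested, 4.01% were higher and 0.892% lower at P1, and 11.2% and 8.37% at P8. Kcnk1, encoding the weak leak channel TWIK-1, had 14.2 and 15.6 CPM under the WT label against 6.27 and 6.35 under cKO at P6 (log2 fold change -1.24 ± 0.18, adjusted p = 0.00102). It had 4.46 and 3.75 CPM under the WT label against 1.55 and 0.951 under cKO at P8 (log2 fold change -1.72 ± 0.20, adjusted p = 0.000146), and its labels did not overlap at any time. Kcnk2, encoding the mechanically gated TREK-1, overlapped between the labels at P1, with 32.6 and 33.7 CPM under the WT label against 33.4 and 33.5 under cKO. At P6 it had 33.6 and 35.8 CPM under the WT label against 41.5 and 47.3 under cKO (log2 fold change 0.36 ± 0.10, adjusted p = 0.0233), short of the 1.5-fold bound. At P8 it had 8.34 and 9.29 CPM under the WT label against 12.8 and 14.4 under cKO (log2 fold change 0.62 ± 0.10, adjusted p = 0.000964), on the other side of WT from Kcnk1. Kcnk10, encoding its close relative TREK-2, had 4.19 and 3.2 CPM under the WT label against 5.82 and 5.42 under cKO at P8 (log2 fold change 0.61 ± 0.12, adjusted p = 0.00408), after overlapping labels at P6 (-0.01 ± 0.12 on the log2 scale). Both rises ended short of a call when 1 library was left out, Kcnk2 at 0.53 and 0.55 without P8 WT library 1 or P8 cKO library 2, and Kcnk10 at 0.42 to 0.59 without P8 WT library 2 or P8 cKO library 1.

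Kcnk13, encoding THIK-1, the background channel of microglia, had 19.0 and 15.2 CPM under the WT label against 18.4 and 17.0 under cKO at P6, with the labels overlapping, and 12.02 and 11.2 CPM under the WT label against 24.1 and 23.0 under cKO at P8 (log2 fold change 1.02 ± 0.17, adjusted p = 0.00158). Kcnk6, encoding TWIK-2, had 11.8 and 12.1 CPM under the WT label against 18.0 and 19.8 under cKO at P8 (log2 fold change 0.66 ± 0.11, adjusted p = 0.00106). Neither was called at P1 or P6, and at P8 the labels of both stood apart. Beside these values, the 8 microglia markers summed to 1975 to 2059.7 CPM (labelled WT) against 3918 to 3932 (labelled cKO) at P8. Of the 8, 7 had a higher mean under cKO, and Tmem119 had the other order, with 59.8 against 22.9 CPM. The part of these cells in the rises was not tested.

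Of the 4 channels opened by intracellular calcium or sodium, 3 were lower in the libraries labelled cKO at P6, against 6.38% of all genes tested. Kcnn4, encoding the intermediate-conductance calcium-activated channel of immune and other non-excitable cells, had 30.1 and 31.8 CPM under the WT label against 20.1 and 17.1 under cKO at P1 (log2 fold change -0.74 ± 0.10, adjusted p = 0.00229). At P6 it had 12.02 and 12.5 CPM under the WT label against 7.48 and 7.31 under cKO (log2 fold change -0.73 ± 0.11, adjusted p = 0.000857). At P8 the order turned, to 11.99 and 11.0 CPM under the WT label against 27.3 and 24.5 under cKO (log2 fold change 1.17 ± 0.11, adjusted p = 2.58e-05). The labels stood apart at all 3 times, lower in cKO at P1 and P6 and higher at P8. The microglia list had the same order of labels as Kcnn4 at P1 and at P8 but not at P6, where it summed to 2019 to 2096 CPM (labelled WT) against 2382 to 2429.8 (labelled cKO).

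Kcnn3, encoding the small-conductance channel SK3, had 28.2 and 24.5 CPM under the WT label against 14.5 and 18.9 under cKO at P6 (log2 fold change -0.66 ± 0.12, adjusted p = 0.00329). At P1 the values were 67.7 and 69.4 CPM under the WT label against 48.5 and 45.7 under cKO (log2 fold change -0.54 ± 0.12, adjusted p = 0.0211), short of the 1.5-fold bound, and at P8 they were 19.7 and 19.3 CPM under the WT label against 17.7 and 18.5 under cKO with no call. Without P6 WT library 1 or P6 cKO library 1 the P6 log2 fold change of Kcnn3 came to -0.55 to -0.48, which ended the call. Kcnt2, encoding the sodium-activated channel Slick (promoter printed above), overlapped between the labels at P1, with 1.07 and 0.75 CPM under the WT label against 0.884 and 0.983 under cKO. It had 5.92 and 5.31 CPM under the WT label against 0.716 and 1.04 under cKO at P6 (log2 fold change -2.67 ± 0.21, adjusted p = 2.04e-05). At P8 the values were 23.9 and 26.9 CPM under the WT label against 8.61 and 8.8 under cKO (log2 fold change -1.55 ± 0.19, adjusted p = 0.000195), so that both labels had gained the transcript while the order between them held. At P1, where Kcnt2 overlapped between the labels, all 6 fibroblast markers and all 4 endothelial markers had higher means under cKO. At P6 and P8 all 6 fibroblast markers had lower means under cKO, as Kcnt2 had. The endothelial list was lower as a sum (120.0 to 124 against 58.5 to 62.5 CPM at P6), with 3 of its 4 markers lower at P6 and 2 at P8, led by Cdh5 (133 against 9.84 CPM at P8), and with Flt1 higher at both times (5.14 against 19.4 CPM at P8). The part of these cells was not tested. Kcnn1, encoding SK1, was not called at any time and ranged from 0.922 to 2.66 CPM.

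None of the 15 voltage-gated pore genes was called at P1 by edgeR or DESeq2 (2, Kcna5 and Kcnc1, had an unadjusted p under 0.05), 4 rose and 2 fell at P6, and 4 rose and 3 fell at P8. Over all genes tested, 4.01% were higher and 0.892% lower at P1. Those shares were 7.16% and 6.38% at P6, and 11.2% and 8.37% at P8. The Kv4 genes, whose channels carry a fast transient current, went different ways. Kcnd3 (Kv4.3) had 9.51 and 11.6 CPM under the WT label against 15.8 and 16.2 under cKO at P6 (log2 fold change 0.60 ± 0.13, adjusted p = 0.00844). Its P8 libraries held 2.47 and 2.88 CPM under the WT label against 6.75 and 5.69 under cKO (log2 fold change 1.21 ± 0.14, adjusted p = 0.000117). Kcnd1 (Kv4.1) lay on the other side, with 9.66 and 8.61 CPM under the WT label against 4.95 and 4.81 under cKO at P6 (log2 fold change -0.90 ± 0.25, adjusted p = 0.0268). It had 16.9 and 15.3 CPM under the WT label against 7.94 and 6.43 under cKO at P8 (log2 fold change -1.16 ± 0.25, adjusted p = 0.00574). Kcnd2 (Kv4.2), never above 3.72 CPM, had 3.72 and 3.2 CPM under the WT label against 0.975 and 1.9 under cKO at P6 (log2 fold change -1.27 ± 0.34, adjusted p = 0.0222) and no call at P8 (-0.47 ± 0.34 on the log2 scale). Of these calls, that of Kcnd3 at P8 was kept in all fits that left out 1 library. The P6 call of Kcnd3 was lost without P6 WT library 1 or P6 cKO library 2 (log2 fold change 0.46 to 0.58, adjusted p = 0.0405 to 0.0599), that of Kcnd1 without any one P6 library (log2 fold change -0.99 to -0.82, adjusted p = 0.0603 to 0.111) and that of Kcnd2 without either P6 WT library or P6 cKO library 1 (log2 fold change -1.38 to -0.87, adjusted p = 0.0539 to 0.104). At P8 the call of Kcnd1 was lost without P8 cKO library 2 (log2 fold change -1.02, adjusted p = 0.0509).

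Of the ether-a-go-go channels, Kcnh5 (Eag2) had 7.51 and 7.62 CPM under the WT label against 11.9 and 13.5 under cKO at P6 (log2 fold change 0.75 ± 0.23, adjusted p = 0.0379). It had 0.841 and 0.845 CPM under the WT label against 2.21 and 1.25 under cKO at P8 (log2 fold change 1.03 ± 0.26, adjusted p = 0.0122). Kcnh2 (Erg1), known for repolarising the heart, had 1.58 and 1.04 CPM under the WT label against 3.55 and 3.04 under cKO at P8 (log2 fold change 1.33 ± 0.32, adjusted p = 0.00986). These were rises at low levels, and all 3 calls depended on single libraries. The P6 call of Kcnh5 was lost without either P1 WT or P8 WT library or any one P6 library (log2 fold change 0.66 to 0.83, adjusted p = 0.054 to 0.152), and its P8 call without either P8 WT library or P8 cKO library 1 (log2 fold change 0.57 to 1.03, adjusted p = 0.0592 to 0.0918). That of Kcnh2 was lost without P8 WT library 2 or P8 cKO library 1 (log2 fold change 1.06 to 1.22, adjusted p = 0.0541 to 0.077). Of the pore genes, 7 were not called at any time. Kcnc4 had 0 counts in both P1 libraries labelled cKO, and the libraries of Kcna6 spread from 2.36 to 21.4 CPM. A count of 0 allows up to 3 counts, or 0.0336 to 0.0551 CPM at these depths, counting error only.

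The silent subunits form no channel alone and join other pores to change their gating. Kcnf1 (Kv5.1; chr12:17172100-17176888, promoter printed above) was higher in the libraries labelled cKO at every time. At P1 it had 4.79 and 4.77 CPM under the WT label against 11.3 and 10.6 under cKO (log2 fold change 1.19 ± 0.13, adjusted p = 0.000453). At P6 it had 15.4 and 11.9 CPM under the WT label against 66.0 and 62.8 under cKO (log2 fold change 2.24 ± 0.13, adjusted p = 2.37e-06), and the next highest of the 12 libraries after those labelled cKO was the first labelled WT at the same time. By P8 the level was 1.46 and 1.33 CPM under the WT label against 6.25 and 6.87 under cKO (log2 fold change 2.23 ± 0.14, adjusted p = 2.55e-06). These 3 calls were kept under every alternative tried. The neuron list, of which 3 of 8 genes were in the table, summed to 134 to 135 CPM (labelled WT) against 128 to 131 (labelled cKO) at P1 and 116 to 125 against 232 to 249 at P6. Most of that sum was Stmn2, with means of 122 against 108 CPM at P1 and 102 against 219 at P6. Of the 3 markers, 2 had a higher mean under cKO and 1 a lower one at both times. The lower one was Stmn2 at P1 and Tubb3 at P6 (17.5 against 16.9 CPM). The part of these cells was not tested. Kcns1 (Kv9.1) had 0.694 and 0.584 CPM under the WT label against 1.25 and 1.7 under cKO at P6 (log2 fold change 1.20 ± 0.30, adjusted p = 0.0167), a call lost without P6 WT library 2 or P6 cKO library 2 (log2 fold change 0.97 to 1.20, adjusted p = 0.0919 to 0.0951). Kcns3 (Kv9.3) was not called at any time and had 3.44 and 3.59 CPM under the WT label against 5.65 and 6.66 under cKO at P6.

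The 9 accessory genes held large differences in both directions. Kcnmb1, encoding the beta subunit that raises the calcium sensitivity of the large-conductance channel in smooth muscle (promoter printed above), had 1.37 and 0.406 CPM under the WT label against 3.59 and 3.81 under cKO at P1, which was not called (adjusted p = 0.057). At P6 it had 0.742 and 0.876 CPM under the WT label against 10.9 and 10.9 under cKO (log2 fold change 3.75 ± 0.60, adjusted p = 0.0016). Its P8 values were 0.101 and 0.485 CPM under the WT label against 2.67 and 3.03 under cKO (log2 fold change 3.23 ± 0.63, adjusted p = 0.0035), and the labels stood apart at all 3 times. The mural list was split. Its sum was higher under cKO, at 2265 to 2327 against 2566 to 2926 CPM at P6 and 1871 to 1875 against 2319 to 2328 at P8, and most of it was smooth muscle actin, Acta2 (1588 against 2046 CPM at P8). Of the 6 markers, 2 had a higher mean under cKO and 4 a lower one at P6, and 3 and 3 at P8. Smooth muscle myosin, Myh11, was higher (1.1 against 20.3 CPM at P8) and the pericyte receptor Pdgfrb lower (220.1 against 162 CPM at P8), and the part of these cells was not tested.

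Kcnip1 and Kcnip3 encode KChIPs, calcium sensors that bind Kv4 pores, and they moved apart. Kcnip1 overlapped between the labels at P1, with 14.7 and 17.1 CPM under the WT label against 16.7 and 18.6 under cKO, and had 3.01 and 2.93 CPM under the WT label against 9.56 and 6.1 under cKO at P6 (log2 fold change 1.40 ± 0.22, adjusted p = 0.00132). At P8 it had 0.336 and 0.499 CPM under the WT label against 5.36 and 5.55 under cKO (log2 fold change 3.69 ± 0.26, adjusted p = 5.36e-06). Kcnip3, whose product is also known as the repressor DREAM, had 4.83 and 4.89 CPM under the WT label against 2.03 and 2.02 under cKO at P6 (log2 fold change -1.26 ± 0.16, adjusted p = 0.000315). By P8 it stood at 6.12 and 6.21 CPM under the WT label against 2.33 and 2.34 under cKO (log2 fold change -1.40 ± 0.15, adjusted p = 9.94e-05). Kcnip1 was thus higher and Kcnip3 lower in the libraries labelled cKO at both times, and none of these 4 calls was lost under an alternative. Kcnmb1 lies within the span of Kcnip1 on the opposite strand without shared exons, so reads of unspliced Kcnip1 RNA could be counted as Kcnmb1 if the counting ignored strand.

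Kcnmb4, encoding the beta subunit of the large-conductance channel in neurons, had 4 and 0 counts in the P1 libraries labelled WT, so no fold is given there. At P6 it had 4.89 and 4.61 CPM under the WT label against 0.716 and 0.513 under cKO (log2 fold change -2.95 ± 0.73, adjusted p = 0.0163). At P8 the values were 5.9 and 7.04 CPM under the WT label against 0.6002 and 0.166 under cKO (log2 fold change -4.09 ± 0.77, adjusted p = 0.00286). The P6 call was lost without P6 WT library 1 or either P6 cKO library (log2 fold change -3.21 to -2.73, adjusted p = 0.0531 to 0.0958). Kcne4, encoding a single-pass subunit that damps the pores it joins, had 0.134 and 0.246 CPM under the WT label against 2.24 and 2.63 under cKO at P1 (log2 fold change 3.64 ± 0.43, adjusted p = 0.000782). The order turned by P8, to 7.08 and 6.14 CPM under the WT label against 0.6002 and 0.309 under cKO (log2 fold change -3.86 ± 0.41, adjusted p = 7.87e-05). At P1 and P8 the fibroblast list had the same order of labels as Kcne4. At P6 the orders differed, with Kcne4 at 0.252 and 0.292 CPM under the WT label against 0.487 and 0.296 under cKO, not called. The list stood at 6448 to 6503 against 2389 to 2566.5 CPM there. Kcnab2, the accessory gene with the highest mean RPKM, had 35.9 and 35.1 CPM under the WT label against 20.5 and 20.3 under cKO at P6 (log2 fold change -0.80 ± 0.11, adjusted p = 0.000653). At P8 it had 32.1 and 30.8 CPM under the WT label against 57.9 and 47.0 under cKO (log2 fold change 0.74 ± 0.11, adjusted p = 0.000679), a rise that came to 0.58 without P8 cKO library 1, short of the 1.5-fold bound. Exons of 14 members, among them Kcnmb4, Kcnj15, Kcnk1, Kcnk2, Kcnt2 and Kcnd3, overlap a gene on the opposite strand, and the sources used here do not say whether the counting used strand.

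Whether the genotype difference itself changed with time was tested as an interaction, called at an adjusted p below 0.05 with no fold bound. From P1 to P6 it was called for 12 of 42 members, against 15.3% of all genes tested. From P6 to P8 it was called for 16, against 21.5%, and for 10 without P8 WT library 2. From P1 to P8 it was called for 21, against 25.7%. In the first interval the Kcnj15 term was -6.09 ± 0.55, adjusted p = 7.61e-05. Those of Kcne4 (-3.12 ± 0.60, adjusted p = 0.0076) and Kcnt2 (-2.72 ± 0.31, adjusted p = 0.000347) were also downward, all on the log2 scale. In the second interval Kcnj10 went further down (-0.98 ± 0.12, adjusted p = 0.000316), as did Kcne4 (-4.38 ± 0.58, adjusted p = 0.000672). Over the same days Kcnn4 (1.90 ± 0.15, adjusted p = 2.48e-05) and Kcnab2 (1.53 ± 0.16, adjusted p = 0.000123) went from a fall to a rise, and Kcnk6 went up (0.90 ± 0.15, adjusted p = 0.00239). From P1 to P8 all 5 two-pore domain genes were called, Kcnk1 downward (-1.38 ± 0.27, adjusted p = 0.00452) and the other 4 upward. The term of Kcnk10 was lost without P1 WT library 2, P1 cKO library 2 or P8 cKO library 1 (log2 fold change 0.64 to 0.66, adjusted p = 0.0511 to 0.0551). Kcnab1, an accessory beta subunit with no call at any single time, was also called upward over this interval (1.16 ± 0.16, adjusted p = 0.000644). The 3 interactions share libraries and are not separate evidence.

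Levels also moved with the day of dissection under each label. Within the libraries labelled WT, 9 members rose from P1 to P6 (all genes 12.2%) and 12 fell (10.9%), and 6 rose from P6 to P8 (8.66%) and 13 fell (10.3%). Within those labelled cKO, 10 rose from P1 to P6 (all genes 11.0%) and 13 fell (10.4%), and 5 rose from P6 to P8 (11.9%) and 16 fell (12.2%). Kcnj10 went down from P6 to P8 under both labels, with a log2 fold change of -0.89 ± 0.08, adjusted p = 3.59e-05 in WT. In cKO the same step was -1.87 ± 0.08, adjusted p = 2.38e-07. The mechanically gated pair also went down over this step, Kcnk2 by a log2 fold change of -1.97 ± 0.10 in WT and -1.71 ± 0.10 in cKO. For Kcnk10 the values were -2.23 ± 0.12 and -1.61 ± 0.12. Kcnj2 went up, with 1.31 ± 0.17 in WT and 1.29 ± 0.17 in cKO. Kcnf1 rose to P6 and fell to P8 under both labels, with steps of 1.51 ± 0.13 and -3.29 ± 0.14 in WT. In cKO its steps were 2.56 ± 0.13 and -3.29 ± 0.14. Kcnj15 and Kcnt2 both rose at each step in WT, with 4.75 ± 0.39 and 3.50 ± 0.31 for Kcnj15. For Kcnt2 the steps were 2.63 ± 0.21 and 2.18 ± 0.19. In cKO both rose from P6 to P8, with 5.22 ± 0.37 for Kcnj15 and 3.31 ± 0.21 for Kcnt2. Kcnip1 fell at both steps in WT (-2.42 ± 0.22 and -2.81 ± 0.26). In cKO its first step was called (-1.17 ± 0.21) and its second was not (-0.52 ± 0.21, adjusted p = 0.082). Apart from that last one, each step named here was called. Cultures from different days of dissection came from different animals, so a step in time and a difference between preparations cannot be told apart.

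Genes that work with potassium channels or potassium uptake but carry no Kcn name were read from a list of 41, of which 27 were in the table and tested. In the libraries labelled cKO, 1 was higher and 1 lower at P1, where 4.01% and 0.892% of all genes were. At P6, 4 were higher and 3 lower, against 7.16% and 6.38% of all genes. At P8, 4 were higher and 10 lower, against 11.2% and 8.37%. Of the beta subunits of the sodium-potassium pump, which drives potassium into cells, Atp1b1 averaged 381 CPM under the WT label against 58.1 under cKO at P8 (log2 fold change -2.71 ± 0.04, adjusted p = 9.31e-10). Atp1b2 was lower too (-1.45 ± 0.06, adjusted p = 1.55e-07). The sodium-potassium-chloride cotransporter Slc12a2 averaged 203 CPM under the WT label against 69.5 under cKO at P8 (-1.55 ± 0.05, adjusted p = 4.6e-08), and the potassium-chloride cotransporter Slc12a7 was lower as well (-1.47 ± 0.08, adjusted p = 1.26e-06). Of the 8 endfoot anchoring and water channel genes, Aqp4 (-2.01 ± 0.07, adjusted p = 7.87e-08) and the syntrophin Sntb1 (-1.19 ± 0.12, adjusted p = 6.43e-05) were lower at P8. The dystrobrevin Dtna was higher (0.93 ± 0.06, adjusted p = 4.34e-06), and dystroglycan, Dag1, was not called (-0.16 ± 0.08, adjusted p = 0.173). Kcnj10, Aqp4, Atp1b1, Atp1b2 and Slc12a2 were all lower at P8 in the libraries labelled cKO, beside the astrocyte list at 1566 to 1949 against 687 to 702 CPM.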

How the data were processed

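Reads of 12 libraries, 2 for each of 6 groups, were counted per gene by the authors, who deposited the raw counts used here. Per the methods and the submitters' processing notes, HISAT2 mapped the reads to GRCm38 (mm10), while for the counting step the program, gene annotation, use of strand and handling of multi-mapped reads were not given in the sources used here. Library totals ranged from 54413504 to 89183250 counted reads.

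Groups came from the sample titles. Genes were filtered with filterByExpr by group and TMM-scaled, and a group-means model over all 12 libraries was tested by quasi-likelihood in edgeR 4.0.16 (limma 3.58.1, R 4.3.3), with Benjamini-Hochberg adjustment over 17938 genes. A call required an adjusted p below 0.05 and, except for interactions, a fold change of 1.5. Standard errors were taken from the fold change and the F statistic, and the same code was tested on simulated data. CPM are TMM-scaled, and RPKM divide them by the GENCODE exon length. Named genes were 9 members of the table known from astrocytes, called members with a mean of at least 1 CPM, at most 10 per direction and time, the 10 highest by RPKM, and the 3 largest terms of each interaction and each direction of each step. Any other gene named was chosen after its values were seen.

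The alternatives were DESeq2 size factors, no filter, the replicate number as a block, the DESeq2 1.42.0 test, the compared groups alone, unadjusted p, each library left out in turn, and the longest transcript as length. Promoters came from RefSeq on GRCm38.p6. The members and gene lists were chosen with earlier results of these data known. A few genes enter the counts and sums but are not reported here by name.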

Additional observations from a re-analysis of the deposited data

Results flagged for a closer look

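Each result here is an interaction, a genotype difference that edgeR found to differ between time points, with terms on the log2 scale given as the later difference minus the earlier one. Interactions were called for 12 of the 42 members from P1 to P6, 16 from P6 to P8 and 21 from P1 to P8. The shares of all genes tested were 15.3%, 21.5% and 25.7%. Among the called members with a mean of at least 1 CPM, the largest terms of the first interval were -6.547 for Kcnmb4, -6.09 for Kcnj15 and -3.12 for Kcne4. The Kcnmb4 term rests on 4 and 0 counts in the P1 libraries labelled WT, depends on the prior count, gives no bound and was lost without P1 cKO library 2 (adjusted p = 0.0618). In the second interval the largest was -4.384 for Kcne4.

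Of the 21 members called from P1 to P8, 19 were named by the rule for named genes. Their terms among the accessory genes were -7.688 for Kcnmb4, with the same limit, -7.504 for Kcne4, -1.739 for Kcnip3, 3.54 for Kcnip1 and 1.246 for Kcnab2. Those of the inward rectifiers were -4.37 for Kcnj15, -1.483 for Kcnj10, 2.03 for Kcnj12 and 0.8723 for Kcnj2. The two-pore domain terms were -1.382 for Kcnk1, 1.176 for Kcnk13, 1.046 for Kcnk6, 0.6879 for Kcnk10 and 0.6106 for Kcnk2. The other terms were 1.233 for Kcnd3, 1.038 for Kcnf1, 1.909 for Kcnn4, -1.593 for Kcnt2 and -1.342 for Kcns1. Leaving out 1 library ended the call of Kcnj2 in 5 cases (adjusted p = 0.0623 to 0.0922) and that of Kcnk10 in 3 (adjusted p = 0.0511 to 0.0551). The call of Kcns1 was lost without any one P8 library, either P1 WT library or P1 cKO library 1, and with the replicate number as a block (adjusted p = 0.0593 to 0.134). For Kcnj2 the libraries were P1 WT library 1, P1 cKO library 1, either P8 WT library and P8 cKO library 1, and for Kcnk10 they were P1 WT library 2, P1 cKO library 2 and P8 cKO library 1. The other 2 called members, named after their values were seen, were Kcnab1 at 1.16 (adjusted p = 0.000644) and Kcna5, which rests on 4 and 0 counts in the P8 libraries labelled cKO and gives no bound.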

How the results depend on the processing

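Of 3420 values of named genes under the alternatives, 3115 kept their direction and their side of the threshold, 295 fell short of it and 10 changed sign. The setting with unadjusted p reused the main fit, so under it no sign could change and no call could be lost. Its values are among those kept. Of 175 named calls, 116 were kept under every alternative. Of 234 counts of calls, 14 moved by over 1.5 times. With unadjusted p, 7 members were higher at P1, and 5 by the DESeq2 test, and with the compared groups alone 1 was lower there. With 1 library left out, the lower members numbered 1 to 4 at P1 and 6 to 11 at P6, the higher members at P6 5 to 9, and the interactions from P6 to P8 10 to 15. The sign changes were all in differences that were not called. As ranges of log2 fold changes with 1 library left out, the P1 difference of Kcnd2 ran from -0.07182 to 0.3408, of Kcnd3 from -0.04977 to 0.01144, of Kcnj16 from -0.3138 to 0.1512 and of Kcnk2 from -0.01315 to 0.04055. The P6 difference of Kcnj16 ran from -0.4426 to 0.1121, of Kcnj2 from -0.01556 to 0.5323 and of Kcnk10 from -0.05148 to 0.02858, the last at 1.365e-06 by the DESeq2 test. The cause of these changes was not tested beyond the loss of a library or the change of test itself. Same-numbered libraries did not deviate together, with correlations of -0.0627 to 0.0442 over 15 pairs of groups. No pairing by number was seen, but these values cannot show whether such libraries shared a litter or a preparation. With the replicate number as a block, the higher members numbered 3, 8 and 14 over the 3 times, the lower ones 2, 11 and 10, and interactions numbered 10, 14 and 20. With 1 library left out, its group held 1 library, assumed to vary like the others. Depth limits the rare members, since a count of 0 still allows 3 counts.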
